A study of Rattus norvegicus with 40 samples.

Results

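MicroRNAs (miRNAs) in blood plasma were compared between rats that later had epilepsy after traumatic brain injury and sham-operated rats, 2 days (D2) after the operation. The compared libraries are 11 of the 40 of the series, 7 from injured rats with epilepsy (labelled TBIE, here TBI+) and 4 from sham-operated rats. They were chosen by their labels alone, and each library comes from 1 rat. All were adult male Sprague-Dawley rats. The TBI+ rats had a lateral fluid-percussion injury, in which a fluid pulse strikes the dura through a hole in the skull, and epilepsy was diagnosed later by continuous video-EEG. The sham-operated rats had the same anaesthesia and craniotomy without the pulse, so they are a surgical control and not untouched animals. Blood was drawn from the tail vein into EDTA tubes, and aliquots of plasma from the same rat were pooled before RNA extraction. The series also holds 9 injured rats without epilepsy (labelled TBIN, here TBI−) on D2, and the same rats on day 9 (D9). The TBI− libraries of D2 also entered the fit behind the calls, and so share in its scaling and its estimate of the spread. Otherwise they and the D9 libraries are used below only where values of the TBI+ rats are set against them.

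MiRNAs are short RNAs that guide Argonaute proteins to messenger RNAs, mainly through the seed, bases 2 to 8 of the mature strand. Each hairpin precursor can yield a strand from its 5′ arm (5p) and one from its 3′ arm (3p). Some miRNAs are made mainly in 1 kind of cell, miR-124 in neurons for instance, and plasma holds small amounts that are released or leak from many tissues. In plasma, a change in the number of releasing cells and a change in release per cell cannot be told apart.

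Of 752 miRNAs in the counts, 565 had a read on D2 and were tested, 542 of them with a read in the 11 libraries. In TBI+ plasma 13 miRNAs were higher (2.3% of those tested) and 5 were lower (0.885%) than in sham plasma. The higher ones were miR-124-3p, miR-124-5p, miR-129-5p, miR-129-1-3p, miR-129-2-3p, miR-132-3p, miR-127-3p, miR-136-3p, miR-341, miR-380-3p, miR-668, miR-410-3p and miR-182. The lower ones were miR-140-3p, miR-455-5p, miR-149-5p, miR-155-5p and miR-210-5p. A miRNA was called where the adjusted p of edgeR's quasi-likelihood test was below 0.05, and 93 of the 565 had an unadjusted p below 0.05.

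The sequences of the miRNAs that were called, and of miR-212-3p, which shares a seed with miR-132-3p, show which strands these counts stand for. They are given 5′ to 3′ from RefSeq, with the seed in capitals, and 15 of the 18 called miRNAs had an entry. The first group is known from neurons, and all of it but miR-212-3p was called higher in TBI+ plasma.
miR-129-5p: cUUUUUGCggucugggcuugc
miR-129-1-3p: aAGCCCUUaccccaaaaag
miR-129-2-3p: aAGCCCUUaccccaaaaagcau
miR-132-3p: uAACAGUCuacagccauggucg
miR-212-3p: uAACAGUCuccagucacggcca

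The 3p strands of both miR-129 genes have the same seed and differ at the 3′ end, and their counts, summed over the libraries, lay within 5% of each other, so they are not independent observations. The seed is the same in miR-132-3p and miR-212-3p, whose genes are neighbours on chromosome 10 (chr10:60521811-60522112 in GRCr8 spans both mature miRNAs).

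The next group was higher as well and comes from 1 stretch of chromosome 6, the imprinted Dlk1-Dio3 region, where many miRNAs are made from the maternal chromosome. The genes of the called members lie in 251 kb on the plus strand (chr6:134328454-134579838 in GRCr8), those of miR-127 and miR-136 within the bounds of Rtl1.
miR-127-3p: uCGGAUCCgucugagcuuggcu
miR-136-3p: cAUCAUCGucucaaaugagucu
miR-341: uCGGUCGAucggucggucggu
miR-380-3p: uAUGUAGUaugguccacaucu
miR-668: uGUCACUCggcucggcccacuacc
miR-410-3p: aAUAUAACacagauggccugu

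No seed was shared within this group. MiR-410-3p has the seed of miR-344b-1-3p, which averaged 18.5 CPM (reads per 1e6 reads of the library) in sham and 4.12 CPM in TBI+ plasma, a log2 fold change of −1.77 that was not called (adjusted p = 0.265). The last called miRNA that was higher, miR-182, belongs to a cluster with miR-183 and miR-96 on chromosome 4 that is known from sensory and epithelial cells, and is shown because its difference depended on the rats used.
miR-182: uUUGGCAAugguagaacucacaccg

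The group below was lower in TBI+ plasma. The gene of miR-140 lies within Wwp2, that of miR-149 within Gpc1 and that of miR-155 within its host transcript Mir155hg, and no 2 of these 4 sequences share a seed.
miR-140-3p: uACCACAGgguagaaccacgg
miR-149-5p: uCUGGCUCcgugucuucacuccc
miR-155-5p: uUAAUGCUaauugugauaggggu
miR-210-5p: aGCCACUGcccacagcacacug

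Library totals, the sums of reads over all miRNAs, were 594332 to 1331905 in sham and 503869 to 2562083 in TBI+ rats. Totals averaged 976548 ± 398143 and 1367608 ± 664885 reads (SD, n = 4 and n = 7; exact permutation test, two-sided, p = 0.333). Values below are CPM, the reads of a miRNA scaled to a library of 1e6 reads, and 3 reads correspond to 1.17 to 5.95 CPM in these 11 libraries, which covers counting error only. The number of miRNAs with a read was 396 ± 25.0 in sham and 419 ± 23.9 in TBI+ rats (exact permutation test, two-sided, p = 0.164). The hemolysis index, log2 of miR-451-5p (a red blood cell miRNA) over miR-23a-3p, was −0.52 ± 0.66 in sham and −0.28 ± 0.55 in TBI+ plasma (exact permutation test, two-sided, p = 0.506). The sham libraries and those of TBI+ rats 1 to 4 carry library numbers from s101 to s126, while those of TBI+ rats 5 to 7 carry s133 to s145 and those of the TBI− rats s132 to s177. The labels do not say what the numbers stand for. TBI+ rats 1 to 4 were therefore also tested against the sham rats alone, and these results are called those of rats 1 to 4.

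The clearest difference was in miR-124, the most abundant miRNA of neurons, which holds down non-neuronal transcripts in them. No read of either strand was found in any of the 4 sham libraries. In the TBI+ libraries miR-124-3p was at 14.6 CPM in the lowest, 29.3 CPM in the median and 71.7 CPM in the highest. The other strand, miR-124-5p, was at 7.79, 19.9 and 29.7 CPM in the same order. Every TBI+ rat thus had reads of both strands and no sham rat had any, and these were the only 2 miRNAs with that pattern.

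With each sham library set to 3 reads, 3.52 CPM on average, mean miR-124-3p was at least 9.10-fold higher in TBI+ plasma (32.0 ± 19.8 CPM, SD, n = 7; adjusted p = 2.1e-06). For miR-124-5p the bound was at least 5.50-fold (19.3 ± 8.76 CPM; adjusted p = 9.7e-06). The reads of both strands came in multiples of 3 in all libraries that had any. Counted once for every 3, the bounds were at least 3.03-fold and at least 1.83-fold. With such repeated counts divided, edgeR gave adjusted p = 0.00021 and 0.00076. Both stayed called in rats 1 to 4 (adjusted p = 4.4e-15 and 1.7e-08), with any single library left out, and in all 26 alternative settings.

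Both strands of miR-129, which is made mainly in brain and acts on potassium channel and synaptic transcripts, were higher in TBI+ plasma. Sham rats 1 to 4 had 0, 33.6, 11.9 and 10.5 CPM of miR-129-5p. TBI+ rats had 47.6 CPM at the lowest, 71.0 CPM in the median and 161 CPM at the highest. The groups did not overlap, and TBI+ rat 1 had the highest value of the 7. The means were 14.0 ± 14.1 CPM and 90.9 ± 40.9 CPM, a log2 fold change (log2FC) of 2.59 ± 0.47 (SE; adjusted p = 0.00048). In rats 1 to 4 it was 2.65 (adjusted p = 6.8e-10), although DESeq2 on these 8 libraries, a fit added after the data were seen, gave no call. Its reads came in multiples of 2 in nearly all libraries, and 2 genes carry this strand, Mir129-1 and Mir129-2.

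Of miR-129-2-3p, sham rats 1 to 4 had 0, 6.11, 2.98 and 9.76 CPM. In TBI+ rats the values ran from 15.9 CPM through a median of 28.9 CPM to 73.4 CPM. Rat 1 was again highest and no TBI+ value fell in the sham range. The log2FC was 2.65 ± 0.56 (adjusted p = 0.00258), and miR-129-1-3p gave nearly the same values (2.65 ± 0.55, adjusted p = 0.0023).

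Of miR-132-3p, an activity-dependent miRNA that shapes dendrites and synapses, sham rats 1 to 4 had 33.6, 16.8, 47.7 and 24.8 CPM. TBI+ rats had 48.5 CPM at the lowest, 52.1 CPM in the median and 81.8 CPM at the highest. The lowest TBI+ value lay just above the highest sham value. The log2FC was 1.15 ± 0.31 (adjusted p = 0.0257). In rats 1 to 4 it was 0.99 and was not called (adjusted p = 0.123). It was also not called without sham rat 1, 2 or 4 or TBI+ rat 7, where the highest adjusted p was 0.105. Its neighbour with the same seed, miR-212-3p, was at 20.2, 17.6, 16.4 and 18.0 CPM in sham rats and at 23.9, 33.5 and 41.2 CPM in the lowest, median and highest TBI+ rat. These ranges did not overlap either, but the log2FC of 0.95 ± 0.28 missed the threshold (adjusted p = 0.0526, and 0.436 in rats 1 to 4). With DESeq2 it was called (adjusted p = 0.00336).

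MiR-137-3p, which is enriched in brain and acts in neuronal maturation, had 1 read in all sham libraries together, in rat 4. TBI+ rats had 1.80 CPM at the lowest, 3.26 CPM in the median and 5.48 CPM at the highest, from 1 to 9 reads per library. All values lay near what 3 reads are worth, and the difference was not called with edgeR (adjusted p = 0.0565). With DESeq2 it was called (adjusted p = 0.0473).

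The list of neuronal miRNAs held 41 names, of which 36 had a read on D2. Of these, 6 were called, all higher, and 30 were not, where 13 of all 565 (2.3%) were called higher. Estimates were above 0 for 29 and below 0 for 7, with a median log2FC of 0.68, whereas over all 565 miRNAs the median was 0.03 with 287 above 0. This list, like the others, was written with earlier results of these data known. Its counts are therefore no independent evidence of a direction. None of the 3 most abundant members was called. MiR-128-3p, a miRNA of neurons that also occurs in blood cells, had 6853, 5764, 8165 and 4437 CPM in sham rats and 5813 to 15111 CPM in TBI+ rats with a median of 8260 CPM. Its log2FC of 0.64 ± 0.24 was not called (adjusted p = 0.142), but in rats 1 to 4, who had 8260 to 15111 CPM, it was (0.87 ± 0.25, adjusted p = 0.0155). Rats 5 to 7 had 5813 to 7789 CPM, inside the sham range. MiR-138-5p and miR-326-3p, next in abundance, had log2FC of 0.17 and −0.15 (adjusted p = 0.761 and 0.772). Summed over the list, sham libraries held 5777 to 9693 CPM and TBI+ libraries 7264 to 16933 CPM, mostly miR-128-3p.

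**Figure D1:**
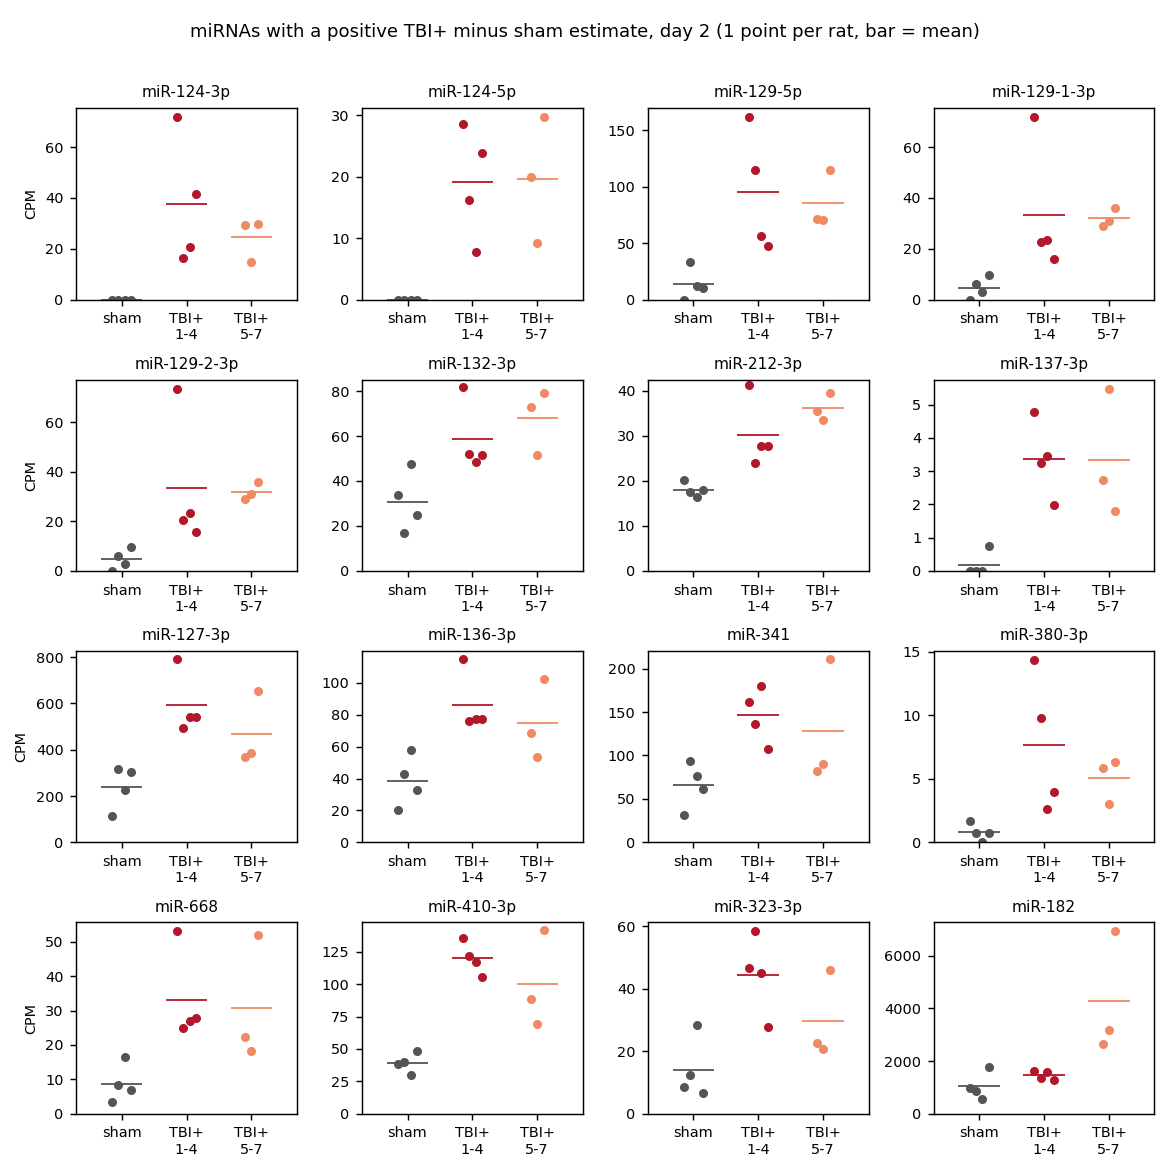
CPM of 16 miRNAs with a positive estimate in D2 plasma, on a linear axis from 0, for the 4 sham rats, TBI+ rats 1 to 4 and TBI+ rats 5 to 7, with 1 point per rat and a bar at the mean. The 3 miRNAs that were not called are miR-212-3p, miR-137-3p and miR-323-3p. Both strands of miR-124 were at 0 in all sham rats, and miR-182 was above the sham range only in rats 5 to 7.

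In the Dlk1-Dio3 region, 6 of the 66 miRNAs with a read were called, all higher, where 13 of all 565 (2.3%) were called higher. MiR-127-3p, whose gene lies antisense to Rtl1 and silences it in the placenta, was the most abundant. In sham rats 1 to 4 it was at 113, 316, 225 and 304 CPM. TBI+ rats had 367 CPM at the lowest, 542 CPM in the median and 792 CPM at the highest. The groups did not overlap, and sham rat 1 was lowest. Mean values were 240 ± 93.8 and 540 ± 148 CPM, a log2FC of 1.20 ± 0.26 (adjusted p = 0.00385). In rats 1 to 4 the log2FC was 1.31 (adjusted p = 3.6e-05).

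MiR-410-3p, from the far end of the region, had 38.7, 39.7, 29.8 and 48.0 CPM in sham rats 1 to 4. TBI+ rats had 69.4 CPM at the lowest, 116.9 CPM in the median and 142 CPM at the highest. The sham values lay close together and well below all TBI+ values. The log2FC was 1.57 ± 0.30 (adjusted p = 0.0011) and stayed between 1.49 and 1.71 with any single library left out.

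MiR-136-3p had 20.2, 42.8, 58.1 and 33.0 CPM in sham rats 1 to 4, and 53.5, 77.1 and 115 CPM in the lowest, median and highest TBI+ rat. Of the 7 TBI+ rats, 6 lay above all sham rats. The log2FC was 1.11 ± 0.29 (adjusted p = 0.0241), and the call was lost without sham rat 1 or 4 (highest adjusted p = 0.147).

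MiR-341, a rodent miRNA, had 32.0, 93.2, 76.0 and 61.6 CPM in sham rats 1 to 4, and 82.3, 136 and 211 CPM in the lowest, median and highest TBI+ rat. Of the 7 TBI+ rats, 5 lay above all sham rats. The log2FC was 1.09 ± 0.31 (adjusted p = 0.0423), near the threshold. The call was lost without sham rat 1, 3 or 4 or TBI+ rat 1 or 7 (highest adjusted p = 0.199) and when only the library total was used for scaling.

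MiR-668 had 3.37, 8.41, 16.4 and 6.76 CPM in sham rats 1 to 4, and 18.2, 26.8 and 53.1 CPM in the lowest, median and highest TBI+ rat. These ranges did not overlap, and TBI+ rats 1 and 7 were highest, both above 50 CPM. The log2FC was 1.93 ± 0.46 (adjusted p = 0.0119). The call was lost without sham rat 1 or 4 (highest adjusted p = 0.069).

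MiR-380-3p was rare, with 3 reads in all sham libraries together and 65 in the TBI+ libraries. The ratio of pooled CPM was 8.84 (95% counting interval 2.89 to 44.0, exact Clopper-Pearson). TBI+ rats had 2.60 CPM at the lowest, 5.86 CPM in the median and 14.3 CPM at the highest, and each of them lay above the highest sham value of 1.68 CPM. The adjusted p was 0.0204, and the call was lost without sham rat 2, 3 or 4 (highest adjusted p = 0.0655). MiR-323-3p, whose gene lies next to that of miR-380, had 8.41, 12.2, 28.3 and 6.76 CPM in sham rats and 20.7, 45.0 and 58.6 CPM in the lowest, median and highest TBI+ rat. Sham rat 3 reached into the TBI+ range, and the log2FC of 1.53 ± 0.46 was not called (adjusted p = 0.0526). In rats 1 to 4 it was called (1.74, adjusted p = 0.00384).

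Over the 66 members of the region with a read on D2 the median log2FC was 1.05, with 50 estimates above 0 and 11 below 0. The others had no read in the 11 libraries. Many of the estimates, in both directions, come from members that averaged far below what 3 reads are worth. The median and the split rest partly on these. The summed level was 372 to 818 CPM in sham libraries and 920 to 1839 CPM in TBI+ libraries, without overlap, and miR-127-3p held the largest share. No overlap in CPM between TBI+ and sham rats was found for 5 of the 66, all higher in TBI+, and for 14 of all 565 in that direction (2.48%). The opposite strands were mostly rare. MiR-127-5p had 0 to 10.5 CPM in sham rats and 5.48 to 26.3 CPM in TBI+ rats (log2FC 1.29 ± 0.53, adjusted p = 0.181), and miR-136-5p had 3.06 to 8.26 CPM and 1.22 to 13.9 CPM (adjusted p = 0.84). MiR-410-5p and miR-380-5p were listed at 0. For miR-380-5p this is not read as absence, since GRCr8 has miR-3579 on the other strand.

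MiR-182 differed from the others in which rats carried the difference. Sham rats 1 to 4 had 962, 874, 549 and 1760 CPM. TBI+ rats 1 to 4 had 1292 to 1617 CPM, all within the sham range, and TBI+ rats 5 to 7 had 2649, 3197 and 6949 CPM. Over all 7 the log2FC was 1.46 ± 0.38 (adjusted p = 0.0241), but in rats 1 to 4 it was 0.51 (adjusted p = 0.271). The call was also lost without sham rat 1, 2 or 3 or TBI+ rat 7 (highest adjusted p = 0.11). No sham library lies in the run of library numbers of rats 5 to 7, so for these rats the injury cannot be told apart from the run. Of the other members of the cluster, those with reads were rare. MiR-183-5p, at whose position GRCr8 has miR-3553 on the other strand, was listed at 0, which is not read as absence. MiR-96-5p had 0 to 4.51 CPM in sham rats and 1.99 to 26.1 CPM in TBI+ rats, and miR-183-3p had at most 3.06 CPM and 10.8 CPM, both highest in rat 7 and neither called (adjusted p = 0.124 and 0.278).

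Among the miRNAs that were lower, miR-140-3p was by far the most abundant. MiR-140 is a miRNA of cartilage, where it is needed for normal growth of the skeleton. Sham rats 1 to 4 had 16740, 16048, 13063 and 9894 CPM of miR-140-3p. TBI+ rats had 4085 CPM at the lowest, 5818 CPM in the median and 7208 CPM at the highest. All TBI+ values lay below all sham values. The TBI+ mean of 5782 ± 1109 CPM was 41.5% of the sham mean of 13936 ± 3132 CPM, a log2FC of −1.20 ± 0.18 (adjusted p = 5.1e-05). In rats 1 to 4 the log2FC was −1.15 (adjusted p = 0.00031), and the call held in all 26 alternative settings. The opposite strand, miR-140-5p, had 123, 84.1, 99.8 and 45.8 CPM in sham rats and 19.8, 43.6 and 68.8 CPM in the lowest, median and highest TBI+ rat. Sham rat 4 overlapped with the TBI+ rats, and the log2FC of −1.05 ± 0.36 was not called (adjusted p = 0.115).

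MiR-455 is made with cartilage collagen, from a gene within Col27a1 in mammals. Of miR-455-5p, the sham rats in order had 409, 423, 267 and 235 CPM. TBI+ rats had 61.7 CPM at the lowest, 67.5 CPM in the median and 201 CPM at the highest. The groups did not overlap, and 4 of the 7 TBI+ rats lay below 70 CPM. The log2FC was −1.59 ± 0.31 (adjusted p = 0.0011) and −1.70 in rats 1 to 4 (adjusted p = 1.3e-07). MiR-455-3p was near the floor in TBI+ rats, at 0.781 to 6.08 CPM against 3.00 to 15.1 CPM in sham rats (log2FC −1.61 ± 0.68, adjusted p = 0.199). Of the 4 cartilage miRNAs, both strands of miR-140 and miR-455, 2 were called and all 4 estimates were negative, with a median of −1.39. Of all 565 miRNAs, 5 were called lower (0.885%) and 255 had an estimate below 0. The list holds only these 2 hairpins and was written with earlier results of these data known. Its counts are therefore no independent evidence of a direction. The summed level of the 4 cartilage miRNAs was 10178 to 17287 CPM in sham libraries and 4170 to 7455 CPM in TBI+ libraries.

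MiR-149-5p, whose host gene Gpc1 encodes a cell-surface heparan sulfate proteoglycan, had 735, 883, 654 and 413 CPM in sham rats 1 to 4. TBI+ rats had 141 CPM at the lowest, 277 CPM in the median and 333 CPM at the highest. Again the groups did not overlap. The TBI+ mean was 37.9% of the sham mean, a log2FC of −1.34 ± 0.24 (adjusted p = 0.00048), and −1.33 in rats 1 to 4 (adjusted p = 2.7e-05).

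MiR-155-5p, which is induced in activated lymphocytes and macrophages, had 395, 145.2, 211 and 168 CPM in sham rats 1 to 4. TBI+ rats had 44.5 CPM at the lowest, 86.3 CPM in the median and 130.2 CPM at the highest. Sham rat 1 was far above the other sham rats, and the nearest values of the groups were 145.2 and 130.2 CPM. The log2FC was −1.19 ± 0.34 (adjusted p = 0.0441). It was called in rats 1 to 4 (−1.19, adjusted p = 0.00135), but lost without sham rat 1 or 3 or TBI+ rat 1, 3, 5, 6 or 7, with a highest adjusted p of 0.25.

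MiR-210-5p is the rare strand of the hypoxia-induced miR-210. It was at 11.8, 6.11, 8.93 and 7.51 CPM in sham rats 1 to 4, or 31 reads in all. TBI+ rats had 0 CPM at the lowest, 1.08 CPM in the median and 2.73 CPM at the highest, with 0 to 7 reads per library. The groups did not overlap, but all TBI+ values lay at or near what 3 reads are worth. The log2FC was −2.37 ± 0.62 (adjusted p = 0.0241) and −2.33 in rats 1 to 4 (adjusted p = 0.111), and the call was lost without sham rat 1 or 3 or TBI+ rat 6. The usual main strand, miR-210-3p, was listed at 0 in all 11 libraries. At its position GRCr8 has a further miRNA, miR-3574, on the other strand, also listed at 0.

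MiR-147, an inflammation-induced miRNA, had lower CPM in every TBI+ rat than in any sham rat but missed the threshold. Sham rats had 112.7, 124.6, 132.5 and 136.6 CPM, and TBI+ rats had 45.0, 63.5 and 87.9 CPM at the lowest, median and highest. The log2FC was −0.85 ± 0.25 (adjusted p = 0.0526). In this direction the CPM ranges did not overlap for 7 of 565 miRNAs (1.24%), the 5 called ones, miR-147 and miR-423-3p.

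**Figure D2:**
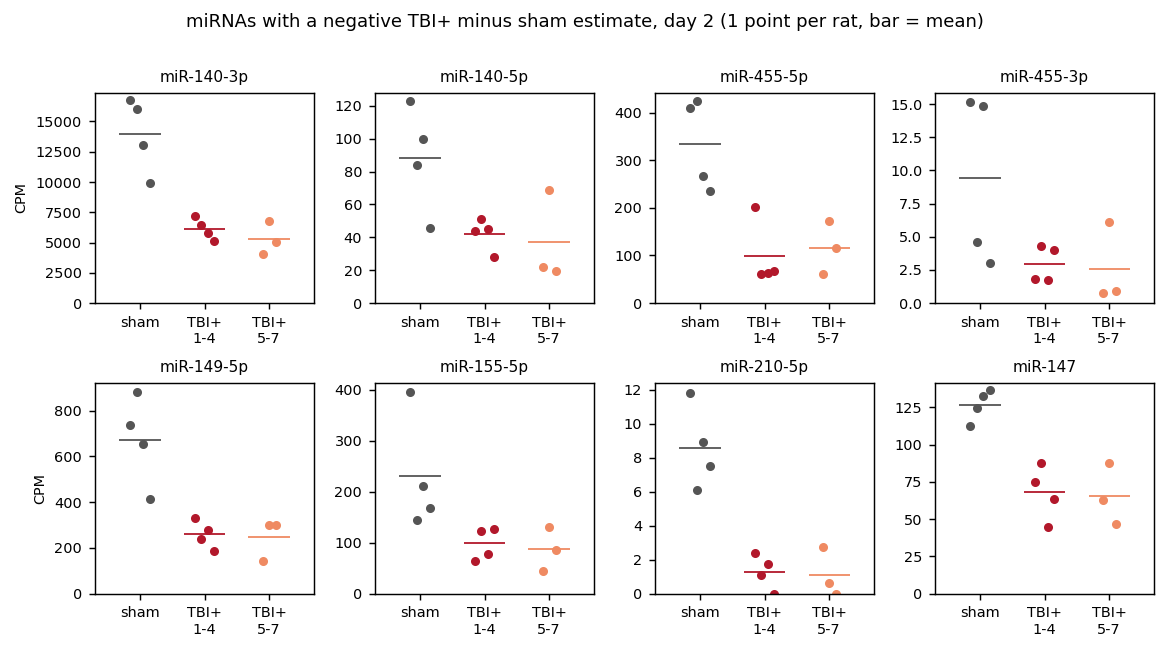
CPM of 8 miRNAs with a negative estimate in D2 plasma, on a linear axis from 0, for the 4 sham rats, TBI+ rats 1 to 4 and TBI+ rats 5 to 7, with 1 point per rat and a bar at the mean. MiR-140-3p was at 9894 to 16740 CPM in sham rats and at 4085 to 7208 CPM in TBI+ rats. MiR-140-5p, miR-455-3p and miR-147 were not called.

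The lists of blood cell, vascular, liver and gut, muscle and oligodendrocyte miRNAs held 1 called miRNA, miR-155-5p. None of the 10 measured red blood cell miRNAs was called, with a median log2FC of −0.19. The most abundant were miR-92a-3p, miR-16-5p and miR-451-5p, with log2FC of −0.32, 0.13 and 0.42 (adjusted p = 0.502, 0.871 and 0.581). Of the 8 myeloid miRNAs, miR-155-5p was the only one called. MiR-142-5p of blood cells in general and miR-223-3p of neutrophils had log2FC of −0.38 and −0.25 (adjusted p = 0.461 and 0.706), and miR-146a-5p had −0.07 (adjusted p = 0.951).

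All 6 measured lymphocyte miRNAs had negative estimates, with a median log2FC of −0.67, and none was called. MiR-150-5p, a miRNA of mature B and T cells, had 37546, 19912, 42490 and 19688 CPM in sham rats and 7044, 16589 and 21847 CPM in the lowest, median and highest TBI+ rat. Sham rats 1 and 3 were well above sham rats 2 and 4, and 6 of the 7 TBI+ rats lay below all sham rats. The log2FC was −0.86 ± 0.30 (adjusted p = 0.123) and −0.82 in rats 1 to 4 (adjusted p = 0.033). MiR-342-3p, also of lymphocytes, showed the same sham rats high, with 1407, 656, 1726 and 671 CPM. It was at 395, 609 and 674 CPM in the lowest, median and highest TBI+ rat (log2FC −0.88 ± 0.26, adjusted p = 0.0526, and 0.0123 in rats 1 to 4). MiR-181a-5p had a log2FC of −0.21 (adjusted p = 0.706).

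No vascular, liver and gut, muscle or oligodendrocyte miRNA was called with edgeR over all 7 TBI+ rats. MiR-122-5p of liver and miR-1-3p and miR-133a-3p of muscle were listed at 0. Each has a miRNA on the other strand, so this is not read as absence. The vascular miR-143-3p, miR-126a-3p and miR-145-5p had log2FC of 0.51, −0.17 and 0.34 (adjusted p = 0.529, 0.768 and 0.644). MiR-192-5p of liver and gut ran from 11192 to 83226 CPM in TBI+ rats against 24406 to 41556 CPM in sham rats. MiR-122-3p of hepatocytes had 138.5 to 755.9 CPM against 160.7 to 201.8 CPM (adjusted p = 0.423) and miR-194-5p had 38.1 to 122 CPM against 74.1 to 92.3 CPM (adjusted p = 0.954). Of the 7 measured muscle miRNAs 6 had estimates above 0, with a median log2FC of 0.99. The muscle miRNAs miR-133b-3p, miR-133a-5p and miR-499-5p had log2FC of 0.99, 0.45 and 1.69 (adjusted p = 0.218, 0.583 and 0.322), and miR-133b-3p reached 1366 CPM in 1 TBI+ rat against at most 293 CPM in sham rats. Of the oligodendrocyte miRNAs, miR-219a-5p and miR-219a-1-3p had log2FC of 0.05 and −0.23. Those of miR-338, which also have a miRNA on the other strand, were listed at 0.

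The 5 miRNAs with the highest mean CPM, miR-22-3p, miR-92a-3p, miR-10a-5p, miR-10b-5p and miR-143-3p, held 36.0% to 50.6% of the reads of a library. None of them was called. MiR-22-3p had 102678 to 144871 CPM in sham rats and 121224 to 211085 CPM in TBI+ rats (log2FC 0.39, adjusted p = 0.525). MiR-10a-5p and miR-10b-5p, whose counts differed by under 5%, had log2FC of 0.48 and 0.47 (adjusted p = 0.322 and 0.326).

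**Figure D3:**
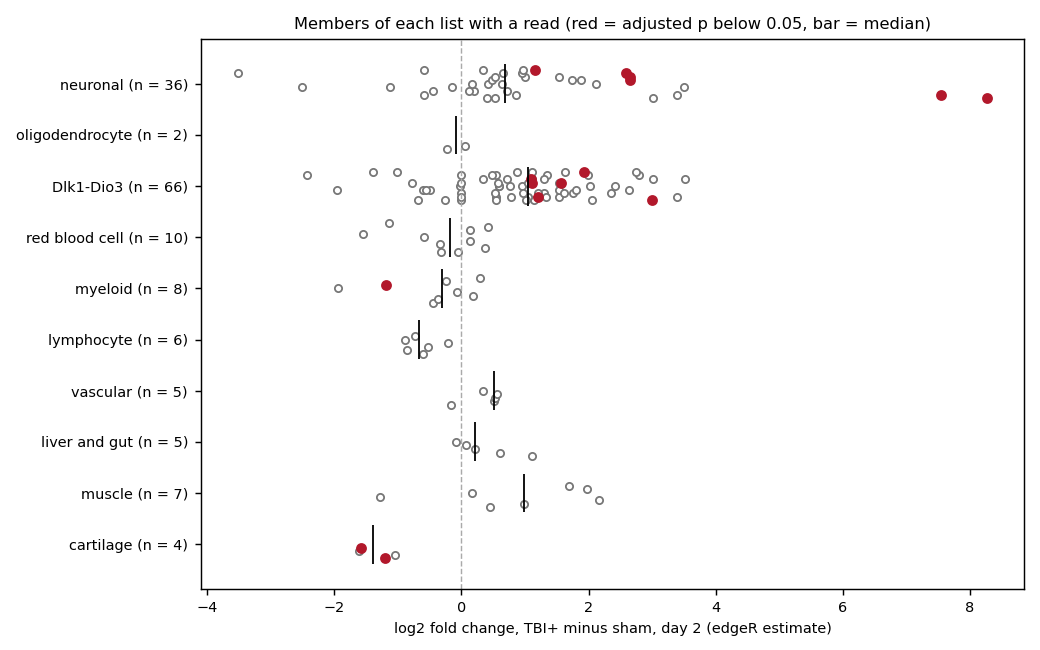
Log2FC of TBI+ minus sham on D2 (edgeR estimates, x axis) for every member of 10 lists of miRNAs that had a read on D2, 1 row per list, with called members in red, others open and a bar at the median. Called members stand in the neuronal and Dlk1-Dio3 rows to the right of 0 and in the myeloid and cartilage rows to the left. The red points of miR-124 mark fitted values against sham libraries without reads and are no measure of fold.

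The study named 11 miRNAs on the basis of these and further samples, so their counts are no independent evidence of a direction. Of the 9 with reads, 4 were called higher (miR-124-3p, miR-136-3p, miR-129-5p, miR-132-3p), 3 were called lower (miR-140-3p, miR-149-5p, miR-455-5p), and 2 were not called (miR-323-3p, miR-212-3p). With DESeq2 both of the latter were called (adjusted p = 0.00782 and 0.00336). By PCR, the study found them higher in injured rats, with and without epilepsy together, than in sham rats. Those called lower here did not differ between injured and sham rats in its PCR of another cohort. Its PCR of miR-129-5p in the same rats gave no significant difference. Neither miR-9a-3p nor miR-434-3p had a read, and they were listed at 0 in all 11 libraries. The study's PCR on other plasma aliquots of the same rats detected both, at higher levels in injured than in sham rats. Both lie where GRCr8 has a mature miRNA on the other strand, miR-9b-5p and miR-3543. Of 93 miRNAs with such a partner, 85 (91.4%) were listed at 0 in all 11 libraries, against 17.4% of the 592 without one, so a value of 0 among them is not read as absence.

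In rats 1 to 4, 24 of 524 miRNAs were called (4.58%), 16 higher and 8 lower, and 15 of the 18 were among them. Estimates of all 18 kept their direction. The 3 that were lost were miR-132-3p, miR-182 and miR-210-5p. The 9 that were gained, named here after their values were seen, were miR-128-3p, miR-153-3p, miR-323-3p, miR-369-3p and miR-122-3p (higher) and miR-150-5p, miR-342-3p, miR-205 and miR-92a-1-5p (lower). MiR-205, a miRNA of epithelia, had the lowest adjusted p among them. Sham rats 1 to 4 had 1095, 1227, 585 and 1713 CPM of it, TBI+ rats 1 to 4 had 189 to 487 CPM and TBI+ rats 5 to 7 had 402 to 4062 CPM. Its log2FC was −1.88 ± 0.26 in rats 1 to 4 (adjusted p = 9.3e-11) and −0.24 ± 0.69 over all 7 (adjusted p = 0.926).

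The number of calls depended on single rats. Without sham rat 1, 8 miRNAs were called higher and 3 lower. Without sham rat 3, 11 were higher and 3 lower, without sham rat 4, 8 higher and 9 lower, and without TBI+ rat 6, 14 higher and 3 lower. With library totals alone for scaling there were 12 higher and 8 lower, so that 60% of calls were higher in place of 72.2%. DESeq2 called 27 higher and 7 lower, all 18 among them. An edgeR fit of the 11 TBI+ and sham libraries alone called 14 higher and 7 lower, again with all 18 among them.

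Whether these values set the TBI+ rats apart from other injured rats was asked with the TBI− libraries of D2. The libraries of TBI+ rats 1 to 4 lie outside the run of numbers of the TBI− libraries, s132 to s177. The part of the numbering in this comparison was not tested. With edgeR, 0 of 565 miRNAs were called between TBI+ and TBI− plasma, 38 had an unadjusted p below 0.05, and DESeq2 gave 0 calls and 26. For the 18 miRNAs the log2 difference of TBI+ minus TBI− lay between −0.73 and 0.33. For miR-124-3p it was −0.02 (95% interval −0.70 to 0.66), for miR-129-5p 0.27 (−0.37 to 0.91), for miR-127-3p −0.01 (−0.41 to 0.40) and for miR-140-3p −0.15 (−0.46 to 0.16). MiR-124-3p was at 11.1 to 50.9 CPM in the 9 TBI− rats, and miR-140-3p at 5152 to 6883 CPM. These intervals include 0 and leave room for differences of the width given. Of the 18, miR-155-5p alone had an unadjusted p below 0.05, with a log2 difference of −0.73 (−1.31 to −0.15; edgeR adjusted p = 0.49). It was at 67.1 to 279 CPM in TBI− rats.

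**Figure D4:**
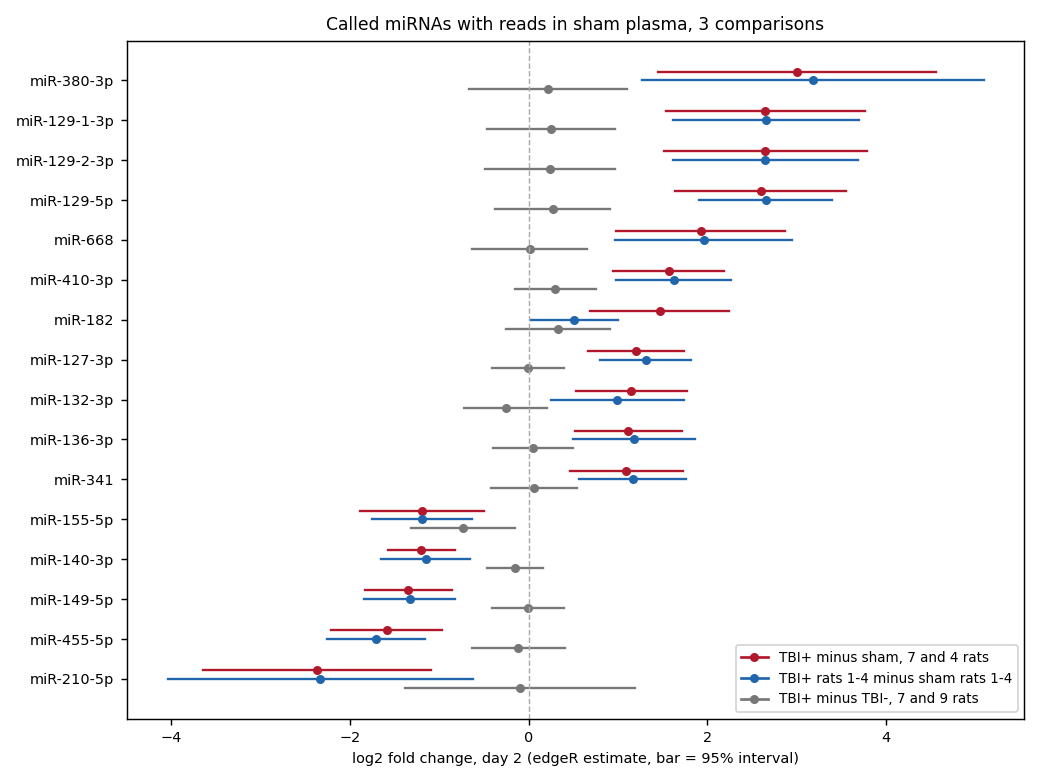
Log2FC on D2 (edgeR estimates, bars are 95% intervals) of the 16 called miRNAs with reads in sham plasma, for TBI+ minus sham (red), TBI+ rats 1 to 4 minus sham rats (blue) and TBI+ minus TBI− (grey). The blue interval of miR-182 lies nearer to 0 than the red one. The grey intervals include 0 except that of miR-155-5p.

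The difference between TBI+ and sham plasma was followed in the same rats to D9. For all 18 miRNAs the estimate moved toward or past 0, but for only 3 of them, miR-129-5p, miR-127-3p and miR-341, did the change between the days pass the test. Over 556 miRNAs 5 changes were called (0.899%), and the other two were miR-133a-5p and miR-185-5p. Without sham rat 2, 11 were called. MiR-129-5p was at 0 to 9.81 CPM in TBI+ rats on D9 and at 14.2, 0, 19.8 and 0 CPM in sham rats 1 to 4. MiR-127-3p was at 60.5 to 308 CPM in TBI+ rats and at 491, 148, 633 and 226 CPM in sham rats, so that 2 sham rats lay above all TBI+ rats. MiR-124-3p had reads in 2 of the 7 TBI+ libraries, at 2.31 and 2.37 CPM, which is what 3 reads are worth there, and in no sham library. MiR-124-5p had reads in 1 other TBI+ library, that of rat 4, at 11.01 CPM, and in no sham library. This value lies within its D2 range, but 3 reads are worth 5.50 CPM in that library. Since reads of miR-124 came in multiples of 3, these D9 values rest on very few reads. None of the 18 was called on D9 with edgeR, where 4 had an unadjusted p below 0.05.

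Depth and the hemolysis index changed between the days as well. The index was −1.28 to 0.20 in sham and −1.15 to 0.36 in TBI+ rats on D2. On D9 it was 0.85 to 1.395 in sham and 0.06 to 2.39 in TBI+ rats. Sham libraries had 140636 to 358202 reads on D9 against 544992 to 2083862 in TBI+ libraries, and 3 reads in a sham library were worth 8.38 to 21.3 CPM. On D9 the sham libraries were numbered s157 to s178, those of TBI+ rats 1 to 4 s158 to s179 and those of TBI+ rats 5 to 7 s104 to s120. The part of depth, of the hemolysis index and of the numbering in the changes between the days was not tested. MiR-140-3p was at 6572 to 18782 CPM in sham and 5184 to 6883 CPM in TBI+ rats on D9 (log2FC −1.02, adjusted p = 0.0532), with a change between the days of 0.03.

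**Figure D5:**
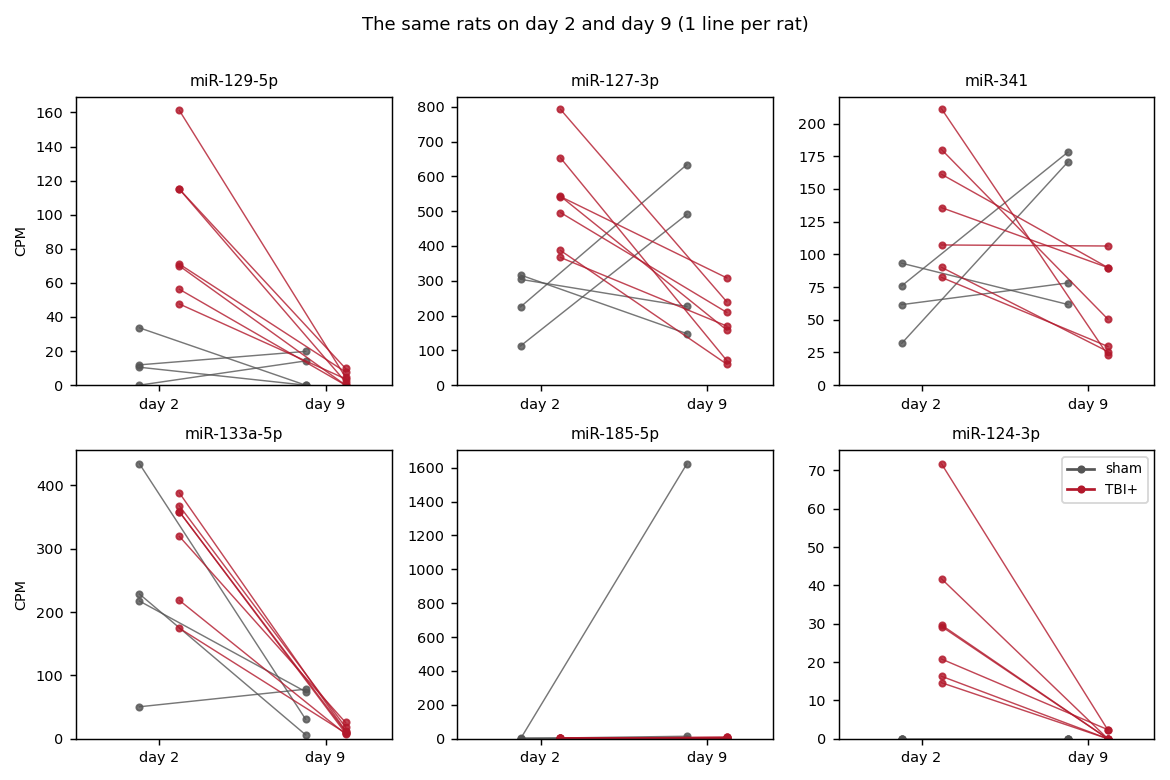
CPM of 6 miRNAs in the same 4 sham (grey) and 7 TBI+ rats (red) on D2 and D9, 1 line per rat, on a linear axis from 0. The first 5 panels show the miRNAs whose TBI+ minus sham difference changed between the days, and the last shows miR-124-3p. In miR-185-5p 1 sham rat stands apart on D9, at 1622 CPM.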

How the data were processed

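The authors trimmed reads with Trimmomatic 0.36 after FastQC 11.8, dropped very short ones, merged both flow cells of each library, aligned with Bowtie2 to the rat genome (Rno6) and counted mature miRNAs of miRBase with featureCounts. They deposited raw read counts for 752 miRNAs without normalization, and whether counting used strand is not given in the sources used here. Here the counts of the 20 D2 libraries entered edgeR 4.0.16 (R 4.3.3; quasi-likelihood test, TMM, no covariates), with Benjamini-Hochberg adjustment over the 565 miRNAs with a read on D2 and the contrast TBI+ minus sham. The change between days was fitted on 22 libraries with the rat as a block. Library totals, detected miRNAs and the hemolysis index were compared with exact permutation tests of the difference of means. Within a day, each sample was a separate rat. Alternatives were DESeq2 1.42.0, other scalings, a count filter, fewer libraries, a replicate block, thinning (seed 1), and corrections for repeated counts. Named were all called miRNAs, the 5 nearest to the threshold, those the study named, opposite strands, and the most abundant of each list and of all. The members and lists were chosen with earlier results of these data known. Names, sequences and positions come from RefSeq (GRCr8), which matched 685 of the 752. The fit was tested on simulated data.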

Additional observations from a re-analysis of the deposited data

Results flagged for a closer look

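Some values stood apart within their group, by the gap to the nearest other value. Of 50 groups of 4 or 7 values checked, 5 held such a value, and chance alone gives about 1 in 20. TBI+ rat 4 had the fewest detected miRNAs of the 7, with 371 against 415 in the next. TBI+ rat 1 had the highest miR-129-2-3p, 73.4 CPM against 35.9 CPM, and likewise the highest miR-129-1-3p, 71.7 CPM. TBI+ rat 7 had 6949 CPM of miR-182, against 3197 CPM in the next. Sham rat 4 had the only miR-137-3p read of the 4 sham rats, worth 0.751 CPM.

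The TBI+ minus sham difference changed between D2 and D9 for 5 miRNAs, by the interaction test. The change was −4.28 for miR-129-5p, −2.50 for miR-127-3p and −2.41 for miR-341, all called higher on D2. It was −2.56 for miR-133a-5p, a muscle miRNA at 50.5 to 434 CPM in sham and 174 to 388 CPM in TBI+ rats on D2, which was not called on that day (adjusted p = 0.583). It was −4.38 for miR-185-5p, where sham rat 2 had 1622 CPM on D9 and the other 10 rats at most 14.8 CPM. Without sham rat 2 the change of miR-185-5p was no longer called.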

How the results depend on the processing

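Over 23 miRNAs and 26 alternatives no estimate turned its direction. In 595 refits 497 stayed on the same side of the threshold, 56 lost the call and 42 gained it, and 9 of the 18 called miRNAs were called wherever they were tested. DESeq2 called 27 higher. Scaling to library totals gave 8 lower, rats 1 to 4 gave 8 lower, and the hemolysis index as a covariate gave 8 lower. With TBI+ rats 5 to 7 left out and TBI− libraries kept, a fit added after the data were seen, 3 were lower. Leaving out 1 rat at a time gave 8 to 14 higher and 3 to 9 lower. Thinning ended the calls of miR-132-3p, miR-155-5p, miR-210-5p and miR-380-3p, the count filter that of miR-210-5p, and both scaling to miR-28-3p and counting near-identical miRNAs once that of miR-155-5p. Scaling to miR-28-3p moved the median of all miRNAs from 0.03 to 0.17. The cause of these changes was not tested.

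Sham and TBI+ rats 1 to 4 of the same replicate number carry adjacent library numbers, and the labels do not say whether they were handled as pairs. The correlations of same-numbered deviations were −0.062, −0.0044, 0.212 and −0.082 over 402 miRNAs, and only rat 3 correlated best with its own number. With only 4 such pairs these values cannot decide whether the samples are paired. The replicate block gave 15 higher and 5 lower over 20 libraries, and 15 and 6 in rats 1 to 4. Both fits lost the calls of miR-132-3p, miR-182 and miR-210-5p, and the fit in rats 1 to 4 also that of miR-380-3p. Leaving out 1 rat at a time, the difference in detected miRNAs was 14.5 to 34.2 (p = 0.0333 without sham rat 4 and 0.0238 without TBI+ rat 4, exact permutation tests), and that of the hemolysis index −0.00337 to 0.491, lowest without sham rat 3. Without sham rat 2, 11 miRNAs changed between the days in place of 5. Reads of 3 or fewer limit miR-380-3p, miR-137-3p and miR-210-5p. Counted once for every 3, miR-124-5p had few reads in some TBI+ rats as well.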

Other observations

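Among the miRNAs that DESeq2 called and edgeR did not, 2 rare ones are given here, chosen after their values were seen. MiR-99b-3p was at 3.37, 9.17, 2.98 and 8.26 CPM in sham rats 1 to 4 and at 9.92, 15.2 and 20.7 CPM in the lowest, median and highest TBI+ rat, without overlap (log2FC 1.27 ± 0.41, edgeR adjusted p = 0.0861, DESeq2 adjusted p = 0.0167). It was at 7.26 to 18.2 CPM in TBI− rats.

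MiR-1298 had 1 read in all sham libraries together and 46 reads in the TBI+ libraries, of which 25 came from TBI+ rat 7. TBI+ rats had 0 CPM at the lowest, 4.33 CPM in the median and 22.5 CPM at the highest, and 5 of the 7 lay above all sham rats (edgeR adjusted p = 0.102, DESeq2 adjusted p = 0.0473, and at most 0.244 with any single library left out). TBI− rats had 0 to 3.07 CPM, and the log2 difference of TBI+ minus TBI− was 2.50 (95% interval 0.89 to 4.12), which was not called (edgeR adjusted p = 0.428). Most of these values lie near what 3 reads are worth.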
